A study of Mus musculus with 8 samples.

Results

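The genes described are the mouse amino acid transporters of 7 solute carrier families, Slc1, Slc3, Slc6, Slc7, Slc36, Slc38 and Slc43, in stem and progenitor cells of the bone marrow. Membership was set by name, as rows with exons whose symbol begins with one of these families. The families themselves were chosen with earlier results of these data known. The rule found 65 rows and, after rows of the same gene were summed, 64 genes of 21991 with exons. By role, 61 of them are carriers or their partner chains, while Slc7a6os and Slc6a19os are neighbouring genes that share a name with a carrier and Slc7a15 was put in no role.

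RNA was sequenced from 2 fractions of lineage-negative marrow cells of C57BL/6 mice aged 8 to 10 weeks, all sorted as carrying c-Kit, Sca1 and CD150. The fraction without CD34 carries the name HSC (hematopoietic stem cells) and the fraction with CD34 the name HPC (hematopoietic progenitor cells). Each had 4 libraries, with 16291733 to 20564901 exon reads per library, and no genotype or treatment parted the groups. The protocol states 5000 sorted cells and speaks of HSC alone, although it stands beside all 8 libraries. The labels do not tie the libraries to separate animals; a p-value then reflects only how these samples vary, and that variation may be technical. CPM is the exon read count scaled to library size. Of the genes behind the sort, Cd34 went with the labels, at 120 ± 15 CPM (SD, n = 4) in HSC and 1276 ± 56 in HPC. Slamf1, the gene of CD150, by which both fractions were sorted as positive, was at 37.6 ± 6.0 CPM in HSC and only 3.14 ± 0.74 in HPC, a log2 change of 3.58 ± 0.20 (edgeR adjusted p = 6.57e-09). The RNA of the HPC libraries thus goes against their label as CD150 carriers, and their Flt3 and Cd48, markers of more advanced progenitors, were at 744 ± 75 and 247 ± 40 CPM, against 20.9 ± 3.3 and 19.7 ± 3.8 in HSC. Kit was not called, and Ly6a, the gene of Sca1, was at 131 ± 16 and 72.1 ± 8.0 CPM.

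Amino acids cross membranes mainly through carriers, and cells use several at once: sodium-driven carriers load neutral amino acids, exchangers swap one for another, and cationic carriers bring in arginine and lysine. Several Slc7 carriers reach the cell surface only when bound to a glycoprotein heavy chain, Slc3a2 (CD98) or Slc3a1. Other carriers sit on the lysosome and serve the sensing of amino acids by the kinase complex mTORC1, and a shortage is sensed by the kinase Gcn2, which raises the factor Atf4. In blood stem cells, amino acid supply is known to bear on protein synthesis and maintenance.

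The 3 promoter stretches printed here show, in turn, the gene with the largest change, an abundant gene of the same family that went the other way, and a gene that holds a motif of the shortage response. They come from RefSeq with build GRCm38.p6 and run 5′ to 3′ on the gene's strand, each with the 250 bases before a start site. Slc38a5 is at chrX:8271131-8271380 on the plus strand, Slc38a2 at chr15:96699729-96699978 on the minus strand and Slc7a7 at chr14:54417938-54418194 on the minus strand. Capitals mark TGATGCAA, the form of the CCAAT-enhancer and Atf4 composite element that was searched for.
Slc38a5: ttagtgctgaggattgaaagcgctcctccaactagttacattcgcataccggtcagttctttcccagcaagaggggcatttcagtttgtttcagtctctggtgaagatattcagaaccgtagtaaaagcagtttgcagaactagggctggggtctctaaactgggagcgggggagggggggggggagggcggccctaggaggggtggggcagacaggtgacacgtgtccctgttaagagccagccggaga
Slc38a2: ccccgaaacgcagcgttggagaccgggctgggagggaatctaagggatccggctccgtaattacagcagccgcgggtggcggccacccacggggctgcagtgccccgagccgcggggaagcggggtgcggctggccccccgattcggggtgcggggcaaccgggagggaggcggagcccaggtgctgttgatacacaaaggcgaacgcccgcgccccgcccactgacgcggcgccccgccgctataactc
Slc7a7: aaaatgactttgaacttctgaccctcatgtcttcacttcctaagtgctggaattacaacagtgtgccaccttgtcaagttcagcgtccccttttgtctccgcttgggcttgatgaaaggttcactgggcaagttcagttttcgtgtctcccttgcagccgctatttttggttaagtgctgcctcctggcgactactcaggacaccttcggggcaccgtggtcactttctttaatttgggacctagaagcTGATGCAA
The Slc38a5 stretch held 8 CG dinucleotides and the Slc38a2 stretch 30, against a median of 6 over the promoters of the table. TGATGCAA or its reverse complement TTGCATCA was in 294 of 32851 windows of 300 bases, or 0.895%, and the GATA motif AGATAA or its reverse TTATCT in 3672, or 11.2%. Among the 20 tested transporter genes with a promoter in the table, TGATGCAA was found in Slc7a7 and Slc1a4 and AGATAA in Slc7a7. Slc6a15, Slc1a5, Slc7a5, Slc38a1, Slc43a3, Slc6a6 and Slc7a4 were tested but had no promoter there and were not searched. The search thus covered 11 of the called transporters. Slc7a11, which had too few reads to be tested, also held TGATGCAA. The AGATAA match was in the windows of other Slc7a7 starts, which are not printed. The TGATGCAA copy begins at base 250 of the printed stretch and runs over the start site, which lies outside the interval that the files give for the gene. Neither motif was in the Slc38a5 window, which says only that these letters are not there.

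The question of the study's design is which genes differ between the CD34-negative and the CD34-positive fraction. Of the 64 genes, 27 had enough reads to be tested, 7 were higher in HSC, 10 were lower and 10 were not called. A call is an adjusted p under 0.05 by edgeR's quasi-likelihood test with Benjamini-Hochberg adjustment over all 12751 genes tested, and in those 12751 genes 37.1% were called, 19.6% as higher and 17.6% as lower. The transporters thus shifted in both directions, with a median log2 change of −0.08 beside 0.00 over all genes. With upper quartile scaling the split was 10 higher and 9 lower. Changes were at least 2-fold in 4 of the higher genes and in 1 of the lower ones. The HSC and HPC libraries did not overlap for 17 of the 27, beside 36.7% of all genes tested. Since a gene can pass the read filter through 1 fraction alone, these counts describe the tested genes and support no statement on the families. Of 173 tested solute carriers of other families, 45 were higher and 30 lower.

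**Figure D1:**
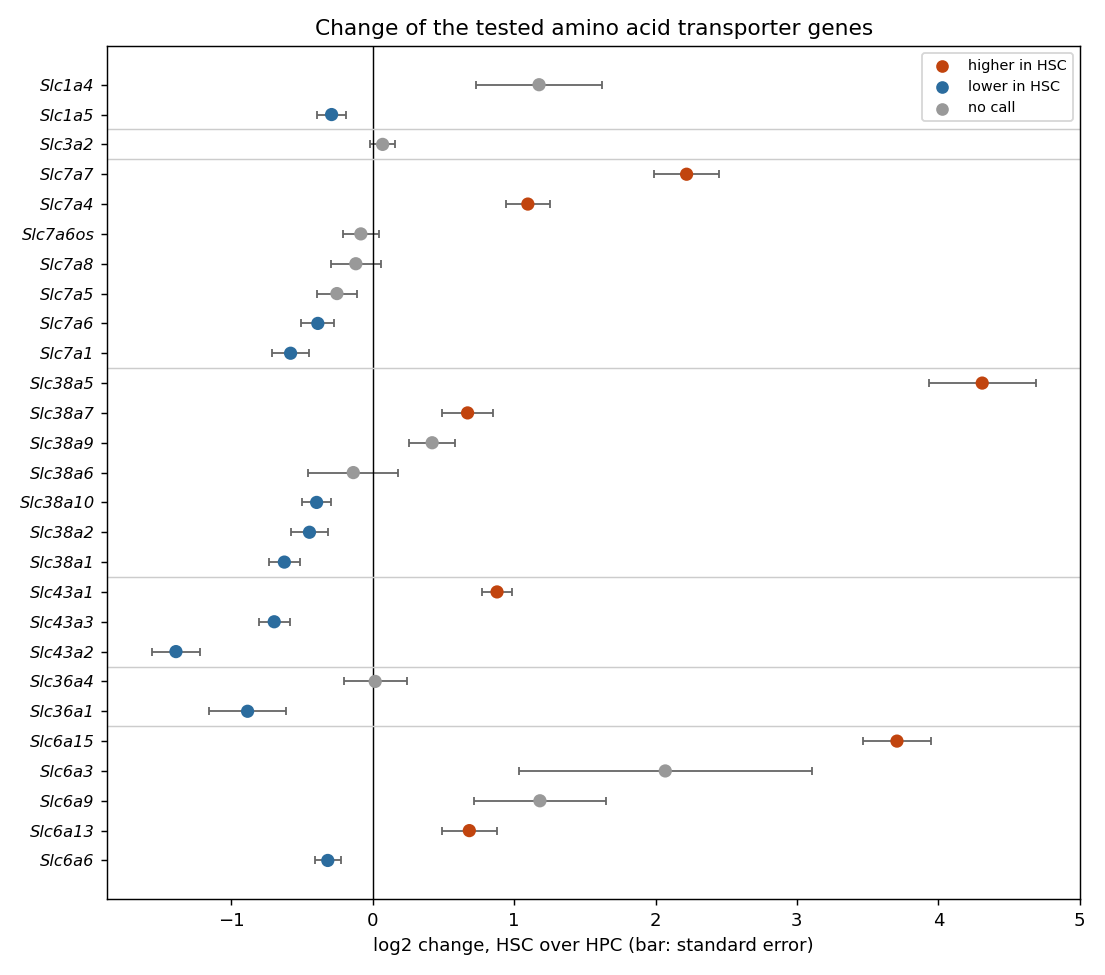
Log2 change of each tested transporter gene in HSC over HPC on the x axis, by family from Slc1 at the top to Slc6 at the bottom; points are fitted changes and bars their standard errors. Slc38a5 at 4.31 and Slc6a15 at 3.71 lie farthest to the right, and Slc43a2 at −1.39 farthest to the left.

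The Slc38 family of sodium-coupled neutral carriers held the largest change. Slc38a5, at chrX:8271381-8280179 (mm10), exchanges glutamine, asparagine, histidine, serine and glycine against protons. Its level was 49.8, 49.5, 57.0 and 65.9 CPM in the HSC libraries and 2.22, 5.42, 0.613 and 2.82 CPM in the HPC libraries. The groups were far apart, and HPC replicate 2 was the highest of its group. The means differed 20.1-fold, and the log2 change came to 4.31 ± 0.38 (SE; edgeR adjusted p = 5.76e-07), or 4.87 without HPC replicate 2. Slc38a5 is also known from red cell precursors, and erythroid markers moved the same way. Of these, 8 of 8 were higher in HSC, beside 19.6% of all genes tested. The list was chosen with earlier results of these data known. Its summed level was 2080 to 2641 CPM in HSC and 170 to 252 CPM in HPC. Car1 was the most abundant of these markers, at 1582 ± 217 CPM in HSC and 79.8 ± 17.7 in HPC (SD, n = 4), and each marker had reads in both fractions. In HSC replicates 1 to 4 that sum was 2246, 2163, 2080 and 2641 CPM, beside 49.8, 49.5, 57.0 and 65.9 CPM of Slc38a5. The part of the erythroid genes in the change was not tested. In these bulk samples, fewer cells that express a gene and less of its RNA per cell cannot be told apart.

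The 3 most abundant other members of the family fell instead. Slc38a1 and Slc38a2, both of the system A type that loads glutamine, alanine and other small neutral amino acids, lie 44.5 kb apart on chromosome 15, at 96571418-96642913 and 96687392-96699724. Slc38a1 was at 112, 127, 147 and 119 CPM in HSC and at 219, 170, 196 and 192 CPM in HPC, with no overlap, and its log2 change was −0.63 ± 0.11 (edgeR adjusted p = 0.000332). Slc38a2, the member that cells are known to raise on amino acid shortage, was at 148, 159, 137 and 108 CPM in HSC and at 175, 168, 231 and 179 CPM in HPC. Its groups did not overlap either, but the highest HSC library came close to the lowest HPC library, and the log2 change was −0.45 ± 0.13 (edgeR adjusted p = 0.0144). Slc38a10, a family member less well described, was at 153 ± 16 CPM in HSC and 202 ± 23 in HPC (SD, n = 4), a log2 change of −0.40 ± 0.10 (edgeR adjusted p = 0.00784).

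Of the Slc38 carriers of the lysosome, Slc38a7 and Slc38a9 both had positive log2 changes, and only Slc38a7 was called. Slc38a7, which lets glutamine out of lysosomes, rose from 13.1, 21.7, 17.0 and 12.7 CPM in HPC to 27.1, 22.5, 26.5 and 26.6 CPM in HSC. The lowest HSC library stood just above the highest HPC library, with a log2 change of 0.67 ± 0.18 (edgeR adjusted p = 0.00825). Slc38a9, the lysosomal arginine sensor upstream of mTORC1, was at 43.9 ± 3.6 CPM in HSC and 32.8 ± 8.8 in HPC and missed the threshold (edgeR adjusted p = 0.0605). HPC replicate 3, at 45.4 CPM, lay among the HSC libraries, and without it the log2 change was 0.61 with an edgeR adjusted p of 0.00356. Without HPC replicate 2 the log2 change was 0.33 with an edgeR adjusted p of 0.164. Slc38a6, a further member of the family, was at 3.21 ± 0.59 CPM in HSC and 3.53 ± 0.64 in HPC. It was not called, with a log2 change of −0.14 ± 0.32.

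Summed per kb of exon, the Slc38 family came to 111 ± 5 CPM per kb in HSC and 105 ± 8 in HPC, with overlapping libraries. This scale uses the annotated exon length of a gene, which need not be that of the transcripts present. Comparisons between genes on this scale, here and below, are thus approximate. In CPM, where long transcripts weigh more, the sum was 546 ± 36 in HSC and 640 ± 52 in HPC. The groups were only just apart on that scale, with HSC replicate 3 at 591 CPM and HPC replicate 4 at 594 CPM. Its makeup was different: Slc38a5 gave 26.9% of the family's sum in HSC and 1.45% in HPC. Slc38a2 gave 26.8% and 38.2%, Slc38a10 22.4% and 31.0%, and Slc38a1 13.3% and 21.6%. By level per kb Slc38a5 was the 3rd of all 64 genes in HSC and the 21st in HPC. Slc38a3 had no read, and Slc38a4, Slc38a8 and Slc38a11 had at most 24 reads in the libraries of either fraction.

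**Figure D2:**
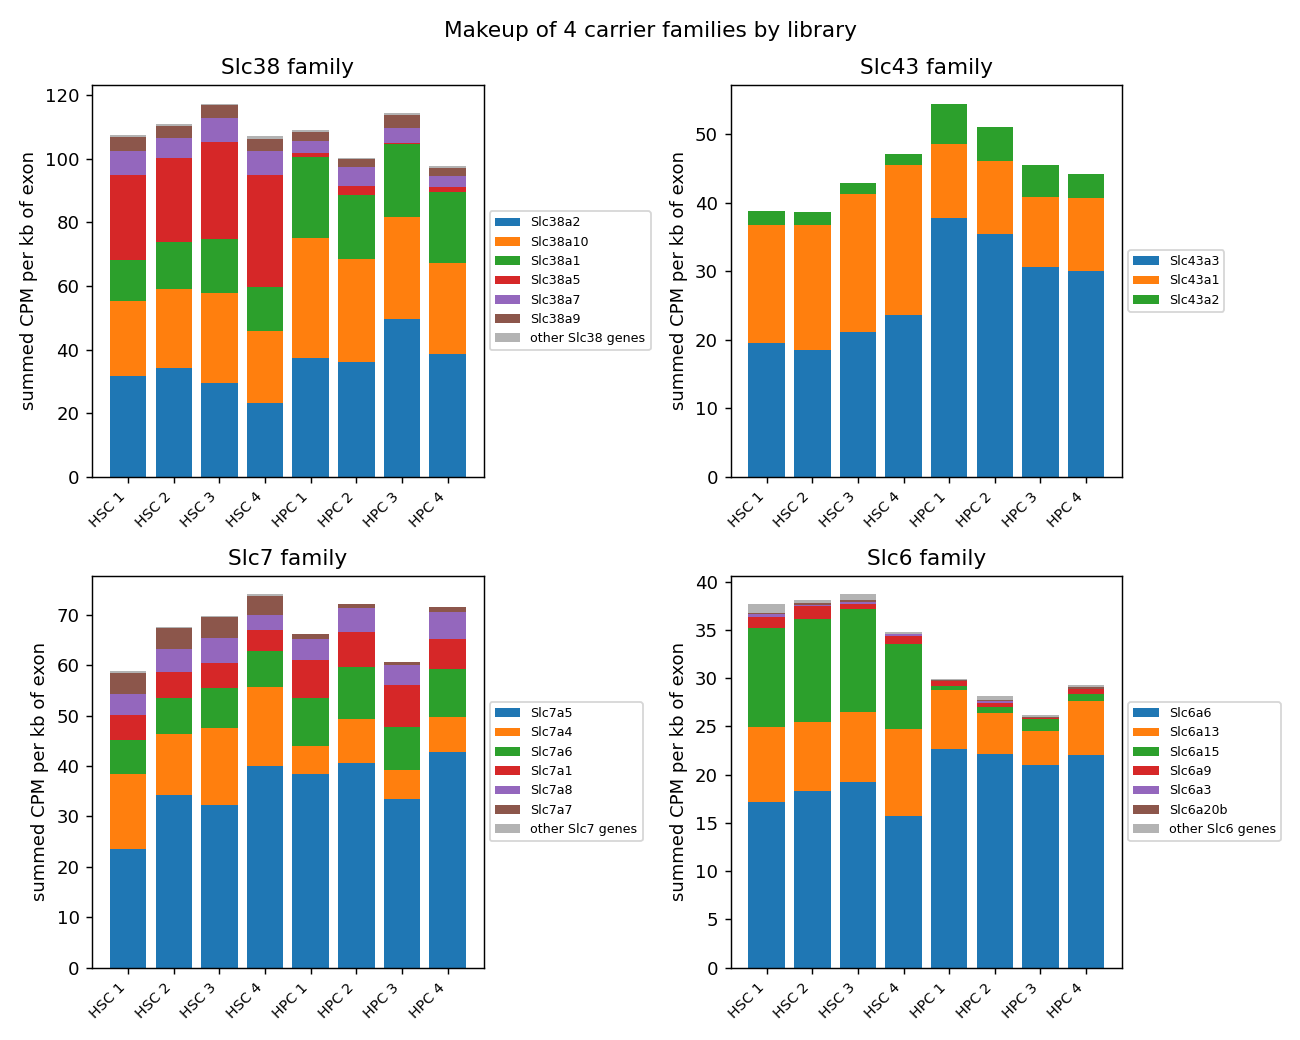
Stacked bars of the summed level, in CPM per kb of exon, for the Slc38, Slc43, Slc7 and Slc6 families in each of the 8 libraries. Each larger gene has 1 colour and the smaller members are pooled in grey. Slc7a6os and Slc6a19os, which only share a name with a carrier, are left out of the bars. In all 4 HSC libraries Slc38a5 and Slc6a15 form large blocks that are thin in the HPC libraries, while the Slc38 sums of the fractions overlap.

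The 3 Slc43 carriers were all called, and not in the same direction. Slc43a1 and Slc43a2 carry branched-chain and other large neutral amino acids without sodium, and Slc43a3 is known as a carrier of purine bases. Slc43a1, at chr2:84838857-84863586, was at 66.1, 70.3, 77.5 and 84.1 CPM in HSC and at 41.1, 41.1, 39.1 and 40.6 CPM in HPC. Every HSC library was above every HPC library, 1.84-fold by the means, with a log2 change of 0.88 ± 0.11 (edgeR adjusted p = 1.59e-05). Slc43a3, at chr2:84936544-84958509, lies 73.0 kb further along the same strand, with 1 gene between them. It was at 65.2, 61.8, 70.6 and 79.1 CPM in HSC and at 127, 118, 103 and 101 CPM in HPC, again with no overlap, and its log2 change was −0.70 ± 0.11 (edgeR adjusted p = 0.000173). The neighbours were thus opposite in direction.

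Slc43a2, at chr11:75530989-75577575, had the largest decrease of the tested transporters. Its level was 17.7, 15.4, 13.5 and 13.2 CPM in HSC and 48.8, 41.2, 38.6 and 28.4 CPM in HPC, where the spread was wide but no library reached the HSC range. HPC was 2.62-fold above HSC by the means, a log2 change of −1.39 ± 0.17 (edgeR adjusted p = 1.66e-05). Between the 2 carriers of large neutral amino acids, the order was the same in both fractions, with Slc43a1 at 19.4 CPM per kb of exon and Slc43a2 at 1.81 in HSC, and 10.6 and 4.74 in HPC. Within the summed family, Slc43a1 gave 46.4% in HSC and 21.8% in HPC, and Slc43a3 49.3% and 68.6%. Neutrophil and monocyte markers also moved toward HPC: 3 of 7 were lower in HSC and none higher, beside 17.6% lower over all genes tested. Their summed level was 259 to 508 CPM in HSC and 1887 to 2993 CPM in HPC, of which Mpo gave 65.8 ± 47.4 and 1947 ± 404 CPM. Mast cell and basophil markers were lower in HSC for 5 of 5, at 5.49 to 38.02 CPM against 78.6 to 198 CPM summed. Both lists were chosen with earlier results of these data known, and the part of either set in the lower transporters was not tested.

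Among the Slc7 genes, the heavy chain was not called while its light chains went separate ways. Slc3a2 was at 114, 105, 104 and 116 CPM in HSC and at 111, 100, 97.1 and 110 CPM in HPC. These ranges overlap, and the log2 change was 0.07 ± 0.09 (edgeR adjusted p = 0.588), which does not show that the levels are alike. The other heavy chain, Slc3a1, had 4 reads in HPC and none in HSC and was not tested. Slc7a5 (LAT1), which with Slc3a2 takes up leucine and other large neutral amino acids, was the most abundant light chain per kb, at 83.0, 120, 113 and 141 CPM in HSC and 135, 143, 117 and 151 CPM in HPC. It was not called (log2 change −0.25 ± 0.14, edgeR adjusted p = 0.175). Without HSC replicate 4, the highest HSC library, the log2 change was −0.38 and the edgeR adjusted p 0.0405. Of the 21 alternatives this was the only 1 that called the gene. Without HSC replicate 1, the lowest HSC library, the log2 change was −0.13 and the edgeR adjusted p 0.457.

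Slc7a7 (y+LAT1), a light chain that swaps cationic for neutral amino acids, rose most in this family. It was at 12.1, 12.3, 12.1 and 11.4 CPM in HSC and at 2.85, 2.48, 1.95 and 2.98 CPM in HPC, 4.67-fold apart, with little spread in either group. Its log2 change was 2.22 ± 0.23 (edgeR adjusted p = 2.69e-06). Slc7a6 (y+LAT2), a carrier of the same kind, went the other way at 33.7 ± 2.5 CPM in HSC and 44.1 ± 3.5 in HPC (SD, n = 4). Its log2 change of −0.39 ± 0.12 (edgeR adjusted p = 0.0167) missed the threshold without HSC replicate 1 (adjusted p = 0.0542) and without HPC replicate 2 (adjusted p = 0.0536), and it was −0.10 (adjusted p = 0.497) when reads over the whole gene were counted. Slc7a6os, 1.72 kb away on the other strand, was not called. Slc7a8 (LAT2) was at 16.9 ± 3.5 CPM and 18.4 ± 2.4 CPM and was not called.

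Set against the heavy chain per kb of exon, the 6 light chains of Slc3a2 summed to 2.65 ± 0.40 times its level in HSC and 3.10 ± 0.25 times in HPC. For Slc7a7 this ratio was 0.223 ± 0.019 in HSC and 0.0497 ± 0.0062 in HPC, and for Slc7a6 it was 0.399 ± 0.048 and 0.547 ± 0.054. Slc7a7 thus remained below Slc7a6 in both fractions on this scale. Slc7a11, the cystine light chain, had 17 reads in HSC and 6 in HPC, and Slc7a9, Slc7a10 and Slc7a12 had none.

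The cationic carriers were split as well. Slc7a1 (CAT1), the main carrier of arginine and lysine in many cells, was at 37.7, 38.5, 35.8 and 31.0 CPM in HSC and at 56.0, 51.5, 61.6 and 44.9 CPM in HPC. All HPC libraries were above all HSC libraries, and the log2 change was −0.58 ± 0.13 (edgeR adjusted p = 0.00232). Slc7a4, a relative with no firmly assigned substrate, was at 55.7, 45.7, 57.8 and 59.3 CPM in HSC and at 21.0, 32.7, 22.0 and 26.4 CPM in HPC. This gene was 2.14-fold higher in HSC with no overlap, a log2 change of 1.10 ± 0.15 (edgeR adjusted p = 5.26e-05). The others were scarce: Slc7a2 had 48 reads in HSC and 11 in HPC and was not tested. Slc7a3 was not tested either, with 7, 7, 6 and 11 reads in the HSC libraries and 1, 0, 0 and 0 in the HPC libraries, which do not overlap.

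**Figure D3:**
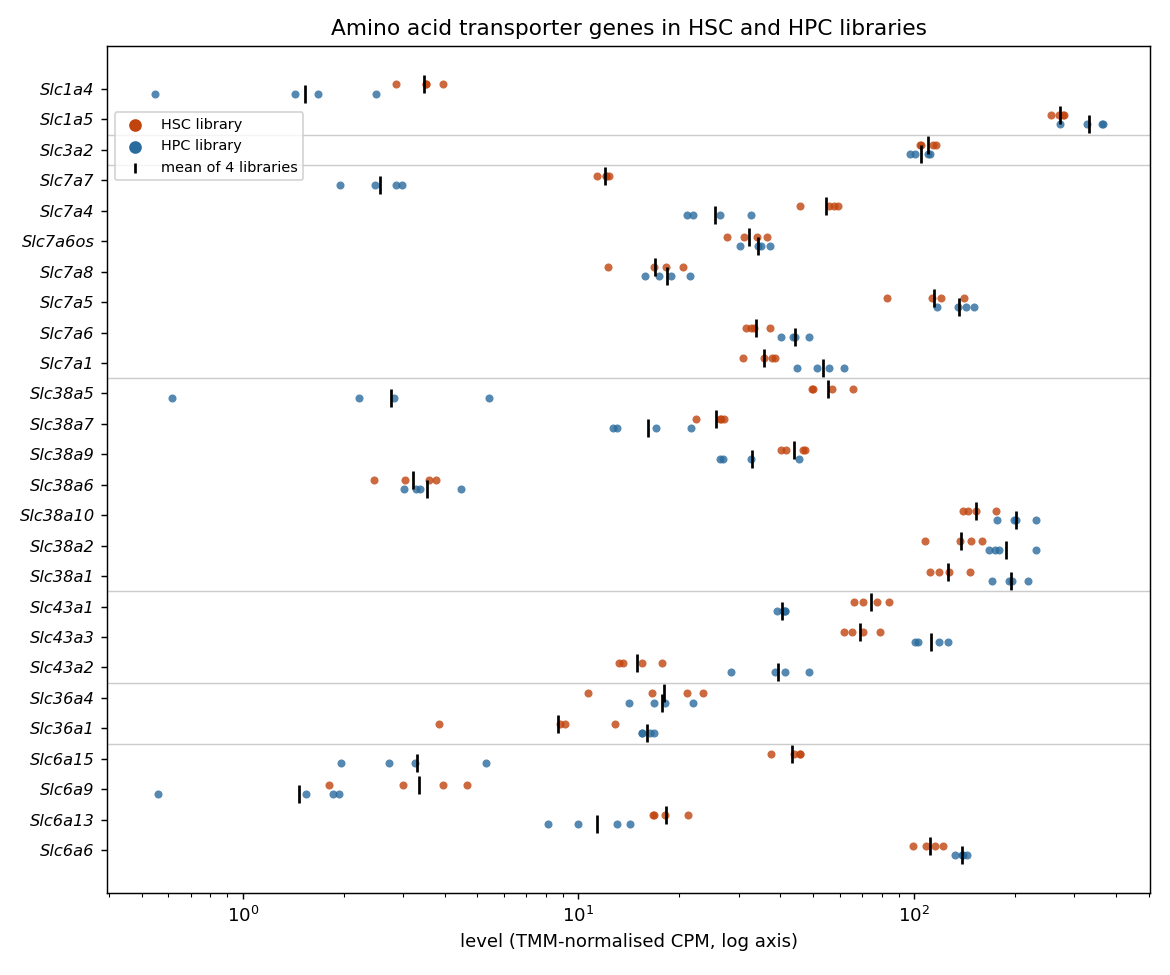
Level of each tested transporter gene with reads in all 8 libraries, as CPM on a log axis, with 1 point per library and a black tick at the mean of 4. Points of HSC and HPC do not touch for Slc38a5, Slc6a15, Slc7a7 and Slc43a2, whereas those of Slc3a2 and Slc7a8 overlap.

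The Slc6 family, better known for carriers of neurotransmitters, held the gene with the smallest adjusted p. Slc6a15 (B0AT2), at chr10:103367459-103419379, carries proline and branched-chain amino acids with sodium and is best known from neurons. It was at 43.9, 45.7, 45.6 and 37.4 CPM in HSC and at 1.96, 2.73, 5.29 and 3.26 CPM in HPC. The fractions were 13.0-fold apart with no overlap, and the log2 change was 3.71 ± 0.24 (edgeR adjusted p = 2.92e-08). Of its exon reads 91.2% were uniquely placed. The gene gave 27.0% of the family's level per kb in HSC and 2.78% in HPC, and the family's sum was 37.3 ± 1.7 CPM per kb in HSC and 28.4 ± 1.6 in HPC.

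Slc6a6, the taurine carrier, was the most abundant Slc6 gene and fell slightly. Its level was 109, 116, 122 and 99.4 CPM in HSC and 143, 140, 133 and 139 CPM in HPC, with a gap between the groups, and its log2 change was −0.32 ± 0.09 (edgeR adjusted p = 0.0121). Slc6a13 (GAT2), a carrier of GABA and taurine, was at 18.1, 16.7, 16.8 and 21.1 CPM in HSC and at 14.2, 9.94, 8.14 and 13.0 CPM in HPC. The lowest HSC library was above the highest HPC library, and the gene was higher in HSC by 0.68 ± 0.19 on the log2 scale (edgeR adjusted p = 0.0123). Slc6a9, the glycine carrier GlyT1, was at 3.35 ± 1.23 CPM and 1.47 ± 0.63 CPM and was not called (edgeR adjusted p = 0.0602). Without HSC replicate 3 its log2 change was 1.40 with an edgeR adjusted p of 0.0372. Without HPC replicate 3 it was 0.90 with an edgeR adjusted p of 0.133. Slc6a3, the dopamine carrier, stayed under 2 CPM in every library, and all of its HPC reads came from replicate 2.

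Slc1a5 (ASCT2), an exchanger of glutamine, alanine, serine and other neutral amino acids, was the most abundant of the 64 genes per kb of exon in both fractions, at 98.4 ± 3.8 CPM per kb in HSC and 120 ± 16 in HPC. Its CPM was 257, 279, 271 and 279 in HSC and 363, 366, 271 and 329 in HPC, and HPC replicate 3 lay within the HSC range. The change of −0.29 ± 0.10 on the log2 scale was called narrowly (edgeR adjusted p = 0.0376). The call was lost without HSC replicate 1, 2 or 3 or HPC replicate 1, 2 or 4, where the adjusted p was 0.101, 0.0616, 0.0732, 0.0988, 0.109 and 0.0520, and with upper quartile scaling, where it was 0.118. Slc1a4 (ASCT1), its relative for alanine, serine and cysteine, was at 2.86, 3.50, 3.52 and 3.96 CPM in HSC and at 1.43, 0.546, 1.67 and 2.49 CPM in HPC. These groups did not overlap, yet the log2 change of 1.18 ± 0.44 just missed the threshold (edgeR adjusted p = 0.0510). The change was 1.504 (edgeR adjusted p = 0.0252) without HPC replicate 4 and 0.89 (edgeR adjusted p = 0.103) without HPC replicate 2. None of the 5 glutamate carriers was tested: Slc1a3 had 34 reads in HSC and 15 in HPC, and Slc1a7 had none.

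Of the proton-coupled Slc36 carriers, Slc36a1 (PAT1), which exports small neutral amino acids from lysosomes, was lower in HSC. It was at 8.82, 9.10, 12.9 and 3.85 CPM in HSC and at 15.5, 15.5, 16.3 and 16.8 CPM in HPC. The HSC libraries were uneven but all below HPC, and the log2 change was −0.89 ± 0.27 (edgeR adjusted p = 0.0195). Slc36a4 (PAT4) was the most abundant of the family per kb over the 8 libraries and in HSC, at 2.94 CPM per kb against 1.64 for Slc36a1, but not in HPC, at 2.90 against 3.03. It was at 17.9 ± 5.6 CPM in HSC and 17.7 ± 3.2 in HPC, a log2 change of 0.02 ± 0.22 (edgeR adjusted p = 0.961).

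The remaining 37 genes were not tested. Of these, 9 had no read in any library (Slc1a7, Slc38a3, Slc6a14, Slc6a18, Slc7a9, Slc7a10, Slc7a12, Slc7a15 and Slc6a19os), for which 0 reads still allow 3, or 0.146 to 0.184 CPM, a limit that covers counting error only. The other 28 had at most 81 reads over the 8 libraries and at most 1.97 CPM in any one, the highest being Slc6a17. By fraction, 6 of the 28 had reads in HSC alone, 6 in HPC alone and 16 in both. In all, reads of the 64 genes made up 0.157% to 0.175% of exon reads in the HSC libraries and 0.162% to 0.183% in the HPC libraries, and the ranges overlap. Their summed level was 401 ± 13 CPM per kb in HSC and 417 ± 21 in HPC, also with overlap. In CPM it was 1598 ± 54 in HSC and 1776 ± 71 in HPC, with every HSC library below every HPC library. That separation is seen on the TMM-normalised scale and not in the plain share of exon reads, so it depends on the scaling.

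Intron reads, which come largely from unspliced RNA, gave another readout of the same libraries and were fitted in the same way. For 16 of the 17 called transporters the log2 change of intron reads had the sign of that of exon reads. Only 8 of the 17 also passed the threshold by intron reads in that direction. Some changes of the same sign were small beside their error, as in Slc38a7 at 0.16 ± 0.33. How often signs match over all called genes was not counted. With reads over exon junctions the sign was the same for 17 of 17, but these reads lie within exons. They overlap the reads behind the calls and give no separate readout. The exception was Slc7a6, at 0.27 ± 0.16 for introns. Introns of Slc6a15 held 775 reads in HSC and 118 in HPC, those of Slc7a7 1184 and 309, and those of Slc43a2 1105 and 2162. Slc38a5 had few, 55 in HSC and 21 in HPC, so that its intron change of 1.35 ± 0.94 is imprecise. In Slc7a5 the intron change was −0.95 ± 0.28 beside −0.25 ± 0.14 for exons, and in Slc43a3 it was −1.22 ± 0.15 beside −0.70 ± 0.11.

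**Figure D4:**
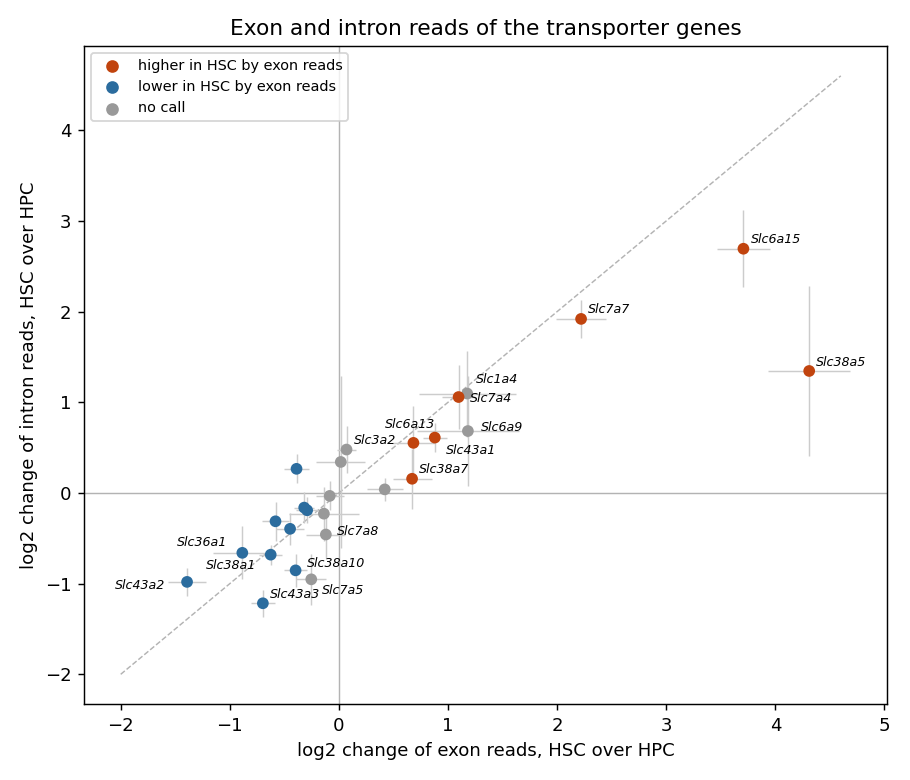
Log2 change of intron reads (y axis) against that of exon reads (x axis), HSC over HPC, for the 26 tested transporter genes with a value in both; bars are standard errors and the dashed line marks equal change. Slc6a15 and Slc7a7 are high on both axes, Slc38a5 has a wide intron bar, and Slc43a3 and Slc7a5 lie below the line.

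Other genes of amino acid handling were counted in the same fit, in which 19.6% of all tested genes were higher in HSC and 17.6% lower. Of 19 tested amino acid carriers of other families, 5 were higher in HSC and 3 lower. Slc17a8, a vesicular glutamate carrier, was at 4.73 ± 2.01 CPM in HSC and had no read in HPC, so it was at least 30.4-fold higher against 3 reads per HPC library. Slc25a12, the mitochondrial aspartate and glutamate carrier, fell to 78.7 ± 5.2 CPM from 142 ± 10 in HPC (log2 change −0.85 ± 0.09, edgeR adjusted p = 5.13e-06). Sfxn1, the mitochondrial serine carrier and the most abundant per kb, was not called at 188 ± 20 and 176 ± 16 CPM.

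Of 15 tested genes of the Gcn2 and Atf4 shortage response, 6 were higher and 2 lower. Nupr1, a stress-induced nuclear protein, was at 23.8 ± 2.7 CPM in HSC and 2.09 ± 0.25 in HPC (log2 change 3.51 ± 0.19, edgeR adjusted p = 5.30e-09). Vldlr, a lipoprotein receptor that Atf4 is known to act on, was at 5.97 ± 0.83 and 41.7 ± 6.8 CPM (log2 change −2.80 ± 0.17, edgeR adjusted p = 1.23e-08). Atf4 itself, the most abundant per kb over the 8 libraries, was not called, at 87.6 ± 15.4 and 86.4 ± 14.5 CPM. Ppp1r15a, which restores translation after stress, had more reads in HSC, at 162 ± 27 CPM against 51.0 ± 13.3 in HPC (log2 change 1.67 ± 0.17, edgeR adjusted p = 2.88e-06). Slc7a11, a transporter that this response is known to raise, was among the untested genes.

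Among 36 tested enzymes that make or break down amino acids, 7 were higher and 12 lower. Asns, which makes asparagine from aspartate and glutamine and also stands in the shortage list, was 4.92-fold higher in HSC, at 114 ± 5 CPM against 23.2 ± 6.2 (log2 change 2.30 ± 0.15, edgeR adjusted p = 3.99e-08). The serine pathway went the other way in Phgdh, its first enzyme, at 230 ± 14 and 423 ± 31 CPM, and in Shmt1, which turns serine into glycine, at 43.7 ± 1.1 and 99.1 ± 9.1 CPM. Their log2 changes were −0.88 ± 0.09 (edgeR adjusted p = 2.58e-06) and −1.18 ± 0.10 (edgeR adjusted p = 4.38e-07).

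For amino acid sensing by mTORC1, 2 of 38 tested genes were higher and 5 lower. Deptor, an inhibitor of the kinase, was at 70.0 ± 7.3 CPM in HSC and 41.2 ± 3.4 in HPC (log2 change 0.76 ± 0.12, edgeR adjusted p = 0.000106). Rptor, the subunit that binds substrates, was at 21.5 ± 4.4 and 42.2 ± 3.6 CPM (log2 change −0.97 ± 0.16, edgeR adjusted p = 0.000189), while Lamtor2, the most abundant per kb, was not called at 93.1 ± 18.1 and 85.9 ± 10.9 CPM. Of the 23 tRNA synthetases of the cytosol, which load amino acids onto tRNA, 1 was higher and 2 were lower. Farsa for phenylalanine and Hars for histidine had the smallest adjusted p, with log2 changes of −0.29 ± 0.10 (edgeR adjusted p = 0.0307) and 0.30 ± 0.10 (edgeR adjusted p = 0.0325), and Kars for lysine, the most abundant per kb, was not called.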

How the data were processed

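The 4 HSC and 4 HPC libraries were told apart by title. Extraction was with ISOGEN, amplification with the SMARTer Pico kit over 18 PCR cycles and library making with Nextera XT, per the labels' protocols. The submitters' processing notes name build mm10, and positions are those of the files. Aligner, counter and use of strand: not given in the sources used here. Hence reads of overlapping neighbours cannot be told apart. The deposited counts are whole exon, intron, gene and junction reads per row, per the file headers. The authors' RPKM and TPM were not tested.

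Total exon reads were summed per gene ID. In R 4.3.3 with edgeR 4.0.16, genes were filtered by filterByExpr, scaled by TMM and compared between groups by the quasi-likelihood test, without covariates. Dividing a log2 change by the root of its F statistic gave the standard error. Each level is a TMM-normalised CPM with the SD of 4 libraries, and each fold a ratio of such means. The biological coefficient of variation was 18.3%. The test was also run on counts simulated with the spread fitted to these same libraries. Such counts cannot show whether the libraries come from separate animals. Motifs were searched on both strands of RefSeq windows from 250 bases before to 50 after each start, and 46 of the 64 genes had one.

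The transporter genes, their roles, the pathway and marker lists and the rule for named genes were chosen with earlier results of these data known. Described in full are called transporters with a mean of at least 5 CPM, both heavy chains and the most abundant gene per family. For each pathway list these are the 2 called genes with the smallest adjusted p and the most abundant gene, and for marker lists the sums. Further genes were named after their values were seen. Marker sums besides those in the text are given for HSC and then HPC libraries, with the most abundant gene by mean CPM over the 8 libraries. Stem cell genes (Meis1) were at 1657 to 1913 and 661 to 778 CPM, 8 of 8 higher in HSC. Megakaryocyte genes (Itga2b) were at 247 to 291 and 154 to 206, with 3 of 6 higher and 1 lower. B cell genes (Cd79b) were at 58.9 to 76.2 and 52.3 to 61.9, with 2 of 4 tested higher. T and NK cell genes (Nkg7) were at 83.0 to 108 and 293 to 380, with 4 of 6 higher and 1 lower. Stromal and endothelial genes (Pecam1) were at 54.6 to 72.2 and 113 to 132, with 2 of 4 tested higher and 1 lower. Of the 6 sort markers (Kit), 2 were higher and 3 lower. Over all genes tested, 19.6% were higher and 17.6% lower. Alternatives were RLE and upper quartile scaling, other count filters, the replicate block, voom of limma 3.58.1, DESeq2 1.42.0, a threshold of 0.01, a tested fold of 1.5, unique exon reads, gene reads, main-assembly rows and leaving out libraries. Protein sequences were not used here.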

Additional observations from a re-analysis of the deposited data

Results flagged for a closer look

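Of 54 group values of the tested transporters, 2 held a library far from the other 3, where chance gives about 1 in 20. Slc38a7 was at 22.5 CPM in HSC replicate 2, against 26.5 to 27.1 CPM in the other HSC libraries, and the gene was called with and without that library. Slc6a3 was at 1.09 CPM in HPC replicate 2 and had no read in the other HPC libraries. Its log2 change was 2.07 ± 1.04 (edgeR adjusted p = 0.138) with that library and 7.49 (edgeR adjusted p = 0.00117) without it, a fitted value that depends on the prior count because the HPC libraries then hold no read.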

How the results depend on the processing

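Over 21 alternatives and 27 tested transporters, 509 of 564 values kept their direction and their side of the threshold, 29 fell short of it, 19 newly passed it and 7 changed sign. Of the 17 called genes, 6 were called under every alternative. Against a tested fold of 1.5, 2099 of all genes were called, with 5 transporters higher and 1 lower, and at a threshold of 0.01 there were 6 higher and 5 lower. Both are stricter by construction, and both turn the balance of 7 higher and 10 lower. Settings that are not stricter by construction moved it too: voom gave 11 higher and 10 lower, and upper quartile scaling 10 and 9. DESeq2 gave 10 and 10, gene reads 9 and 9, and leaving out HPC replicate 2 gave 8 and 8. Every other alternative had more lower than higher, and the cause was not tested. Leaving out 1 library gave 7 to 8 higher and 8 to 11 lower transporters and 4184 to 4587 calls in all. The sign changed for Slc36a4 and Slc7a8, neither of them called. Slc36a4 was at −0.022 with the replicate block and from −0.136 to 0.195 with 1 library left out, and Slc7a8 at 0.0929 with both libraries numbered 4 left out and from −0.22 to 0.0026 with 1 left out; the cause was not tested. Replicate numbers gave no clear pairing of the samples, but 4 libraries per group cannot exclude one. Deviations of same-numbered libraries correlated at −0.005, −0.15, 0.17 and 0.26. With the number as a block, 8 transporters were higher, 10 lower and 5036 genes called in all. HSC replicates 3 and 4 correlated best with the HPC library of their own number, and HSC replicates 1 and 2 did not. The untested transporters reached at most 1.97 CPM in a library and were left out by the read filter.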
